A study of Mus musculus with 12 samples.

Results

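Sorted SCA1+ cells from mouse back skin were compared between wounds of every age sampled and skin that was not wounded. The comparison set the average of 3 wound groups, taken 16 h, 1.5 d or 3 d (hours or days) after injury (9 libraries), against the unwounded group (3 libraries), and so used all 12 libraries of the series. Every gene in the count table was a candidate: 14901 of 25239 genes had enough counts to be tested. Of these, 1095 rises and 920 falls are called the steady wound response here. Each held in every wound library without a called difference between the wound times. Their wound group means also spanned less than 2-fold and less than the average change.

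All mice were wild type male C57BL/6 animals of 8 weeks. Unwounded skin came from 3 mice, and each wound group from 3 other mice that received full-thickness excisional wounds with a 4 mm biopsy punch. Cells were freed by mincing and liberase, and live cells without CD45 and CD31 but with SCA1 were sorted, which leaves out immune and endothelial cells by their surface proteins. All groups share this digestion and sort, no agent is named, and the control is intact skin of other mice rather than skin next to the wound. SCA1, encoded by Ly6a, is carried by only some dermal fibroblasts and also by cells of other types, so that the libraries stand for a sorted fraction.

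Dermal fibroblasts build and hold the collagen matrix of the skin. After injury they sense cytokines, danger signals and mechanical change, release chemokines that draw in neutrophils and monocytes, divide, move into the provisional matrix of the wound bed and later secrete and contract new matrix. An average over the wound times takes in genes that hold one level and genes that move between the times, and both kinds are set apart here.

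Libraries held 26389453 to 43493475 counts, and levels are given as CPM, in which the counts of each library are brought to a common total after scaling by the trimmed mean of M values (TMM). Separate mice make up each group, and between replicates chi-square per degree of freedom over genes was 85.9 or more, where counting error by itself gives 1. The transcript of the gate, Ly6a, stood at 1142, 1146 and 869.7 CPM in the unwounded libraries and 961 to 2916 (median 1367) CPM in the 9 wound libraries, a difference of 0.51 on the log2 scale that did not pass (adjusted p = 0.116). At 1.5 d by itself it was higher, at 2019.9 ± 781 against 1053 ± 158 CPM (SD, n = 3), and passed (adjusted p = 0.0265). The transcripts of the proteins sorted against stayed low, with a maximum over libraries of 8.71 CPM for Ptprc (CD45) and 3.98 CPM for Pecam1 (CD31). Ptprc was at 2.56, 0 and 0 CPM without a wound and 0.467 to 8.71 (median 1.58) CPM in wounds and did not pass (adjusted p = 0.462), but did when unwounded replicate 1 was left out (adjusted p = 0.00312). Among fibroblast genes, Pdgfra, the receptor for platelet-derived growth factor, stood at 164, 104 and 179 CPM without a wound and 283 to 974 (median 550.5) CPM in wounds, and the lowest level of the collagen gene Col1a1 in any library was 7141 CPM. In samples of sorted cells, fewer cells of a type and less RNA per cell cannot be told apart.

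Keratinocyte transcripts differed between the groups, and the count of each gene list below is also given with them as a covariate. The 20 markers of this list took 1.99% to 4.00% of counts in the unwounded libraries and 0.0887% to 1.53% in the wounds. The mean was 3.11% without a wound and 0.861% in wounds, a difference of -2.25 percentage points (exact permutation test over the 12 libraries, two-sided, p = 0.00455, the smallest this design allows). Without the keratins on the list the difference was -0.575 percentage points. The ranges did not overlap, so the loss of keratinocyte transcripts and wounding cannot be told apart over the whole set. The covariate, called the keratinocyte score, is the mean log2 CPM of these markers in each library.

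On average, 2330 genes rose (15.6% of those tested) and 2364 fell (15.9%) at a Benjamini-Hochberg adjusted p under 0.05 in edgeR's quasi-likelihood test. The change was at least 2-fold for 1447 and 1726 of them. A called gene was counted as common to the wounds when all 9 wound libraries lay on one side of all 3 unwounded ones, which held for 1401 rises and 1523 falls, while 929 rises and 841 falls overlapped in at least 1 library. Over all genes tested, and without any call, 9.81% had every wound library above and 11.2% every wound library below. The median change over all tested genes was -0.01 on the log2 scale.

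Most genes common to the wounds were steady over the times sampled. A common gene was termed steady when the F test among the 3 wound times did not call it and the 3 wound group means spanned less than 2-fold and less than the average change itself. By this rule 1095 rises (7.35% of tested genes) and 920 falls (6.17%) were steady, 78.2% and 60.4% of the common genes. A further 125 rises (0.839%) and 69 falls (0.463%) were common but differed among the times and are termed shifting, and 181 rises and 534 falls lay between both classes. In all, 948 genes (6.36%) differed among the wound times. A gene that is not called among the times is not thereby shown to be constant, since there were 3 mice per time.

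Steady rises had median changes of 1.25 at 16 h, then 1.25 at 1.5 d, then 1.13 at 3 d on the log2 scale, and steady falls of -1.32, -1.41 and -1.35. The wound group means of these genes spanned a median of 0.41 and 0.50. The rule for this class limits that span, so the similar medians over the times describe the selection and are no separate finding. Changes of at least 4-fold were seen for 216 steady rises and 221 steady falls, and of at least 16-fold for 63 and 24. The limit of 2-fold fell between close neighbours, with Cyp7b1 and Pak3 just inside at a span of 0.998 on the log2 scale each and Ccrl2 and Glrx just outside at 1.001 and 1.002. With the keratinocyte score as a covariate, 440 of the 1095 steady rises and 206 of the 920 steady falls were still called, and none of either in the other direction.

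**Figure D1:**
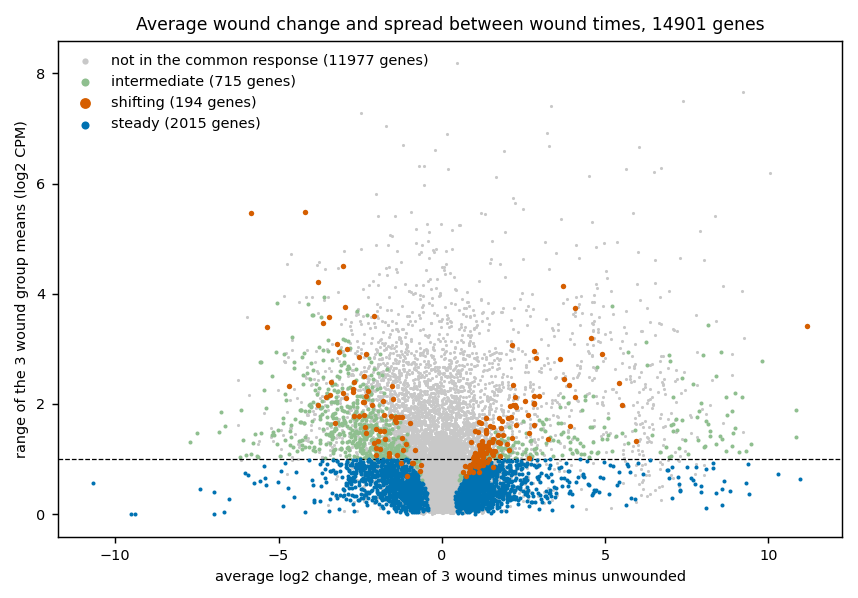
Average wound change of each of 14901 tested genes (log2, mean of the 3 wound times minus unwounded) against the range of its 3 wound group means (log2 CPM), with 1 point per gene coloured by class. Steady genes lie below the dashed line at a range of 1, and the 125 rises and 69 falls that shifted between the times lie mostly above it.

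Among steady genes with at least 20 CPM on their higher side, the largest rise was that of a matrix glycoprotein of healing wounds. Tnc, encoding tenascin C (chromosome 4, 63959785 to 64047015), stood at 17.2, 11.6 and 10.2 CPM in the unwounded libraries and at 868 to 4087 (median 2499.6) CPM in the 9 wound libraries. The lowest wound library was thus many times above the highest unwounded one, and the average change was 7.62 on the log2 scale (SE 0.55, adjusted p = 3.82e-06). Timp1, an inhibitor of matrix metalloproteinases (chromosome X, 20870166 to 20874737), went from 24.9, 41.7 and 28.8 CPM to 547 to 3506 (median 978) CPM (5.15, SE 0.51, adjusted p = 2.44e-05). Its highest value came from replicate 1 at 1.5 d and stood apart from the other 8 wound libraries, all of which still lay above every unwounded library.

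The receptor genes Il1rl1 and S1pr3 and the ligand gene Apln were among the 12 largest steady rises. Il1rl1, the receptor of the alarmin interleukin-33 (chromosome 1, 40429570 to 40465414), was at 32.9, 25.8 and 9.88 CPM without a wound and 828 to 2039 (median 1324) CPM in wounds, 60.2-fold higher on average (adjusted p = 9.56e-06). Its ligand Il33 was steady as well, at 149, 277 and 189.9 CPM and then 1077 to 3063 (median 2064) CPM, 8.98-fold higher (adjusted p = 3.08e-05). As steady genes, both members of this pair were by the rule above the unwounded range in each of the 9 wound libraries. S1pr3, a receptor for the lipid sphingosine-1-phosphate (chromosome 13, 51408618 to 51422797), rose 41.0-fold from 9.42, 4.67 and 8.69 CPM to 183 to 482 (median 293) CPM (adjusted p = 3.82e-06). Apln, the ligand of the apelin receptor of vessels (chromosome X, 48025146 to 48034853), rose 42.6-fold from 1.56, 0.691 and 0.796 CPM to 17.1 to 82.7 (median 42.3) CPM (adjusted p = 3.67e-05).

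The other large steady rises belonged to no single class of protein. Steap1, a membrane protein of the cell surface (chromosome 5, 5736322 to 5749317), stood at 0.42, 0.526 and 1.16 CPM without a wound and 45.8 to 155 (median 82.9) CPM in wounds (6.96 on the log2 scale, SE 0.50, adjusted p = 3.82e-06). Glis3, a zinc finger transcription factor (chromosome 19, 28258851 to 28680077), went from 3.13, 1.32 and 1.19 CPM to 49.4 to 146 (median 95.3) CPM, and its 3 wound group means spanned no more than 0.16 on the log2 scale. Dbx2, a homeobox gene, the sialidase gene Neu2 and Kcne4, an accessory subunit of potassium channels, rose 34.5-, 31.4- and 30.4-fold to medians of 21.6, 53.4 and 54.9 CPM. These 5 genes kept their call with the keratinocyte score as a covariate. The log2 changes of Il1rl1, Glis3 and Dbx2 were 5.91, 5.63 and 5.11 without it and 5.19, 4.98 and 4.41 with it.

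A pair of the 12 are genes of wounded epidermis. Krt6b, a keratin of stressed keratinocytes (chromosome 15, 101676023 to 101680293), had 0, 0 and 3.52 CPM in the unwounded libraries and 6.80 to 161 (median 56.7) CPM in wounds (adjusted p = 0.00547). Fragments that match both Krt6b and its near-identical neighbour Krt6a were not counted, so its level is uncertain. Gjb2, which encodes the gap junction protein connexin 26, had 0, 0.691 and 2.16 CPM and 4.76 to 83.9 (median 41.2) CPM (adjusted p = 0.00195). Its lowest wound value came from replicate 1 at 3 d, the library with the smallest keratinocyte share (0.0887%). The part of keratinocytes in these rises was not tested beyond the covariate, with which both stayed called (adjusted p = 0.00177 and 0.000365) and their log2 changes went from 5.77 and 5.42 to 8.49 and 7.77. Under limma-voom neither was called (adjusted p = 0.0977 for Krt6b and 0.0558 for Gjb2).

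**Figure D2:**
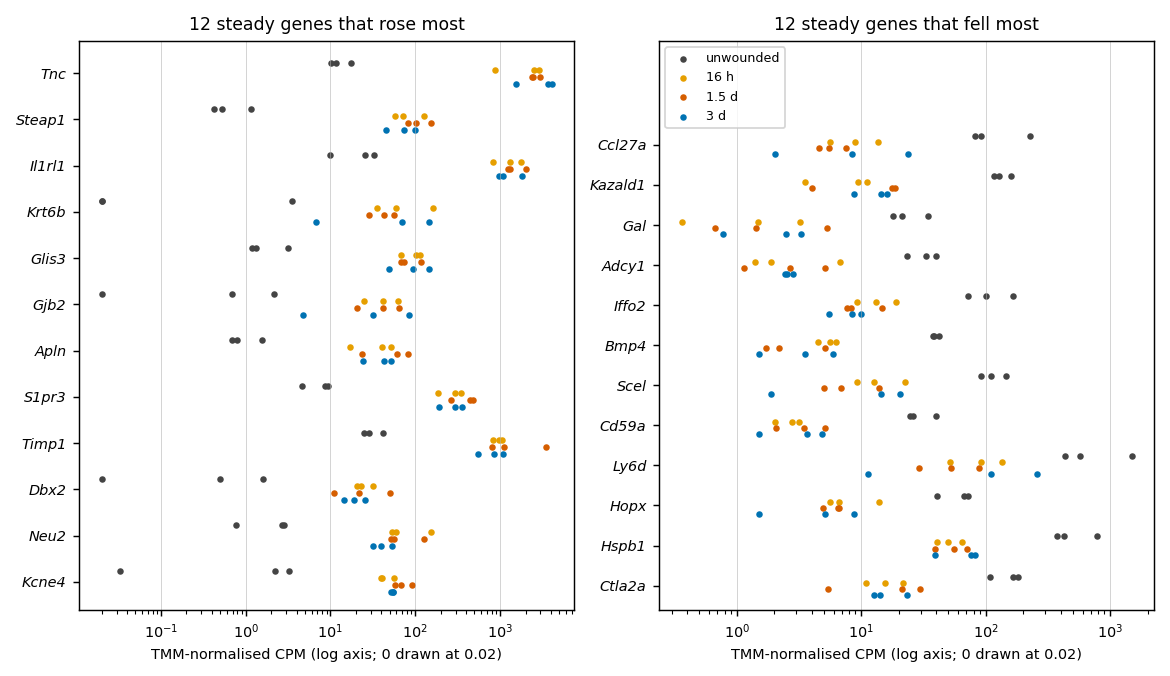
Level of the 12 steady genes that rose most and the 12 that fell most, by the rule stated in the methods, in TMM-normalised CPM on a log axis (a value of 0 is drawn at 0.02), with 1 point per library coloured by group. No wound library overlaps an unwounded one for these genes, as the rule for steady genes requires. Tnc runs from 10.2 CPM in the lowest unwounded library to 4087 CPM in the highest wound.

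The largest steady falls included secreted signals of the skin. Bmp4, a bone morphogenetic protein (chromosome 14, 46383525 to 46390669), stood at 37.9, 38.6 and 42.1 CPM in the unwounded libraries, a narrow range, and at 1.51 to 6.24 (median 4.47) CPM in wounds (-3.33 on the log2 scale, SE 0.34, adjusted p = 3.25e-05). Ccl27a, a chemokine that draws T cells to the skin (chromosome 4, 41769470 to 41774176), went from 91.6, 226 and 81.9 CPM to 2.04 to 23.6 (median 7.54) CPM, 15.6-fold lower (adjusted p = 7.86e-05). Kazald1, a secreted protein with a Kazal-type domain (chromosome 19, 45075241 to 45079289), had 159, 116 and 127 CPM without a wound and 3.52 to 18.6 (median 11.2) CPM in wounds, 11.9-fold lower (adjusted p = 3.19e-05). For each of these genes the highest wound library stayed well below the lowest unwounded one. Gal, which encodes the neuropeptide galanin, fell 11.8-fold to a median of 1.48 CPM.

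The other large steady falls were of mixed function. Hspb1, a small heat shock protein (chromosome 5, 135887919 to 135889563), stood at 374, 783 and 427 CPM and then at 38.9 to 81.6 (median 55.8) CPM, 9.22-fold lower (SE 0.25 on the log2 scale, adjusted p = 8.12e-06). Hopx, a homeodomain cofactor without DNA binding of its own, fell 9.29-fold from 40.9, 71.7 and 67.1 CPM to 1.51 to 13.8 (median 6.53) CPM. Adcy1, an adenylyl cyclase, went from 40.2, 23.3 and 33.5 CPM to 1.15 to 6.70 (median 2.56) CPM. Its wound group means were 3.34 ± 2.93 CPM at 16 h, then 2.99 ± 2.00 at 1.5 d, then 2.61 ± 0.181 at 3 d (SD, n = 3). Cd59a, an inhibitor of the complement membrane attack complex, Ctla2a, an inhibitor of cysteine proteases, and Iffo2, of the intermediate filament family, fell 9.51-, 8.89- and 10.8-fold.

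Several of these falls concern genes that keratinocytes express. Scel encodes sciellin, a precursor of the cornified envelope, and fell 10.01-fold from 91.1, 111 and 145 CPM to 1.87 to 22.3 (median 12.6) CPM (adjusted p = 0.000188). Ly6d had 432, 1494 and 574 CPM without a wound and 11.3 to 260.3 (median 87.7) CPM in wounds (adjusted p = 0.00107). With the keratinocyte score as a covariate Ly6d and Gal were no longer called (adjusted p = 0.258 and 0.0711), while Scel, Ccl27a and Bmp4 were (adjusted p = 0.00787, 0.0188 and 0.00624), with smaller log2 changes of -1.56, -2.54 and -2.44. The other 10 of these 12 falls kept their call, Hopx, Hspb1 and Cd59a also with smaller changes, of -1.91, -2.61 and -2.41.

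Some genes were present on one side only. With no count in the 3 unwounded libraries and at least 1 CPM in each of the 9 wounds, Tnfsf11, the osteoclast and lymphoid cytokine RANKL (chromosome 14, 78277446 to 78308043), ran from 4.22 to 12.6 CPM in wounds, with a median of 9.23, and was at least 236-fold higher when the unwounded group is set at 3 counts in all. Dok5, an adaptor of receptor tyrosine kinases, and Dusp9, a phosphatase of MAP kinases, were at least 152- and 79.4-fold higher and also steady. Clec4e, Lilr4b and Havcr2, receptors known from myeloid and other immune cells, were at least 76.3-, 78.9- and 53.1-fold higher, with wound medians of 2.43, 2.24 and 1.99 CPM. Aldh1a2, which makes retinoic acid, was at least 388-fold higher but shifted, and Chrna1, a subunit of the muscle acetylcholine receptor, was at least 78.8-fold higher. In the other direction Mrgprb2, a receptor of mast cells, and Klhl14 had no count in any wound library and means of 2.70 and 2.94 CPM without a wound, and neither was called with the keratinocyte covariate (adjusted p = 0.145 and 0.0736).

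The programme lists summarise named functions, and the plot of called members shows all 32. For scale, a list like the rest of the genome would have about 15.6% of its members rising and 15.9% falling. With the keratinocyte covariate far fewer genes were called, 760 rises and 388 falls among the 14901 tested. List counts with the covariate are to be read against these lower numbers. Examples outside the stated rule were picked after their values were seen.

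**Figure D3:**
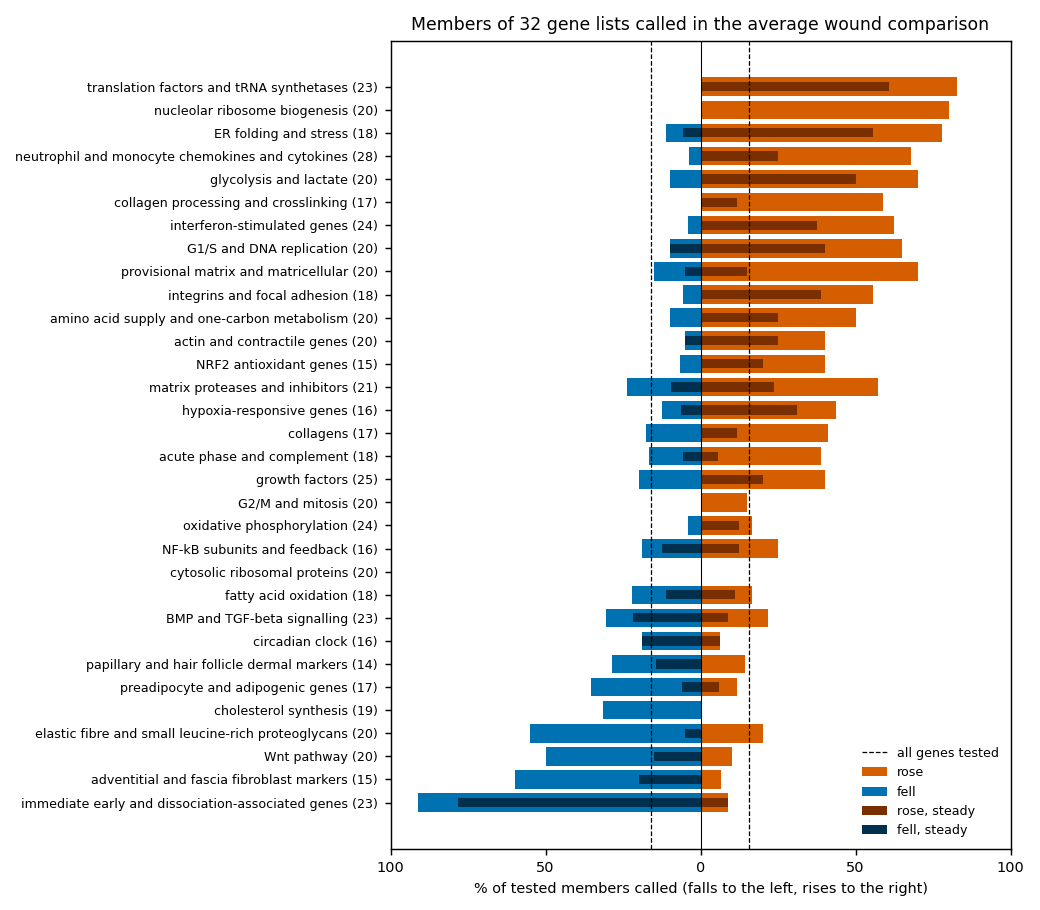
Share of the tested members of 32 gene lists (number tested in brackets) that rose (right) or fell (left) in the average wound comparison, with the steady members as dark inner bars and the shares over all tested genes as dashed lines. Translation factors stand at the top with 19 of 23 rising, and immediate early genes at the bottom with 21 of 23 falling.

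Most of the listed chemokine, cytokine and cytokine receptor genes rose. Of 28 such genes 19 rose, 1 fell and 8 were not called (median 1.54 on the log2 scale, against -0.01 over all genes), 7 of the rises being steady, and 14 rises remained called with the keratinocyte covariate. Cxcl5, a neutrophil attractant (chromosome 5, 90759298 to 90761625), had 10.2, 0.954 and 2.69 CPM without a wound and 622 to 5182 (median 2609.7) CPM in wounds, 509-fold higher (adjusted p = 1.56e-05), with group means that spanned 2.20 on the log2 scale, too wide for a steady call. With the covariate its log2 change was 8.28 in place of 8.99. Its relative Cxcl3 was steady, at 25.5, 19.5 and 9.59 CPM and then 143 to 478 (median 274) CPM, 14.7-fold higher. Both chemokines were common to the wounds, which by the rule puts every wound library above every unwounded one. Il11, of the interleukin-6 family, rose 34.0-fold to a median of 37.5 CPM, and its relative Lif 12.5-fold to 223 CPM (Il11 5.09 on the log2 scale, 4.35 with the covariate). The monocyte attractant Ccl2 was already at 1560.0, 1786 and 801 CPM in the unwounded libraries, stood at 1098 to 3778 (median 1841) CPM in wounds, and did not pass (adjusted p = 0.202).

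Receptors for some of these signals were in the steady class too. Il1r1, the interleukin-1 receptor, rose 5.34-fold to a median of 474 CPM (adjusted p = 8.28e-05), and Osmr, the oncostatin M receptor, 3.53-fold to 267 CPM (adjusted p = 0.000176). The listed genes of the NF-kB pathway did not follow as a block: 4 of 16 rose and 3 fell, with a median of 0.30, and 3 rose and 1 fell with the covariate. Vcam1, an adhesion molecule for leukocytes, was steady at 203 to 433 (median 385) CPM against 76.3, 39.0 and 64.1 CPM (adjusted p = 2.49e-05), whereas the transcription factor gene Irf1 fell 3.64-fold from 355, 325 and 256 CPM to 58.0 to 159 (median 73.7) CPM (adjusted p = 8.91e-05).

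Innate defence genes rose in part. Of 18 acute phase and complement genes 7 rose and 3 fell (median 0.51), and with the covariate 3 rose and 1 fell. Cfb, complement factor B of the alternative pathway (chromosome 17, 34856374 to 34862514), stood at 128, 98.2 and 84.7 CPM without a wound and at 946 to 3022 (median 2152) CPM in wounds, 19.9-fold higher and steady (adjusted p = 3.82e-06). Saa3, an acute phase apolipoprotein, rose 477-fold from 6.75, 0.724 and 0.796 CPM to 513 to 4786 (median 1079) CPM, with a log2 change of 8.90, or 8.20 with the covariate, and with the reservation that fragments shared with other Saa genes were not counted. Cd55, which protects cells from complement, fell 2.98-fold from 282, 191 and 234 CPM to 46.6 to 123 (median 80.1) CPM (adjusted p = 0.000131). An activator of the cascade and a protector from it thus changed in opposite directions. Both were steady, so by the rule each change held in all 9 wound libraries.

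Interferon-stimulated genes rose more often than genes at large. Of 24 measured, 15 rose and 1 fell (median 1.44), 9 of the rises were steady, and 7 rises remained with the keratinocyte covariate. Among the wound times 0 of the 24 were called by edgeR and 0 by limma-voom, 1 by DESeq2, and 4 had an unadjusted p under 0.05 in edgeR. Zbp1, a sensor of nucleic acids (chromosome 2, 173206612 to 173218922), stood at 16.3, 16.7 and 12.8 CPM without a wound and 51.6 to 142 (median 82.6) CPM in wounds, 5.52-fold higher (adjusted p = 4.38e-05). Rsad2 and Oas1a, both antiviral genes, rose 9.91- and 7.67-fold from means of 3.03 and 4.96 CPM (adjusted p = 0.0005 and 0.000562). The only fall in this list was Usp18, a negative regulator of the interferon response, 1.70-fold lower (adjusted p = 0.0481, but 0.115 with the covariate). The remaining 8 genes, among them Gbp2, Stat2 and Irf9, were not called. Interferon-responsive genes also stand in other lists. Irf1 (NF-kB list) and Cxcl10 (chemokine list) fell, with log2 changes of -1.87 and -0.78 (adjusted p = 8.91e-05 and 0.0192). Of these only Irf1 kept its call with the covariate (adjusted p = 0.0141). Cxcl9 of the chemokine list was not called (adjusted p = 0.549).

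Provisional matrix genes rose in most cases. Of 20 provisional matrix and matricellular genes 14 rose and 3 fell (median 1.80), and with the covariate 11 rose and 1 fell. Only 3 of the rises were steady, 6 were shifting, and the median change grew from 0.67 at 16 h to 1.78 at 1.5 d and 2.52 at 3 d. Beside Tnc, Thbs4, a thrombospondin of tendon and injured tissue (chromosome 13, 92751586 to 92794818), was steady, at 50.3, 38.1 and 68.6 CPM and then 267 to 752 (median 623) CPM, 11.2-fold higher (adjusted p = 2.41e-05). Vcan, the hyaluronan-binding proteoglycan versican, was the other steady rise, 6.72-fold (adjusted p = 6.82e-05). Tgfbi, a matrix protein that binds integrins, fell 3.06-fold and was steady.

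Among 17 collagen genes 7 rose, 3 fell and 8 differed among the wound times (median 0.57). With the keratinocyte covariate 7 rose and none fell. Col8a1, a short-chain collagen of vessels and remodelling tissue (chromosome 16, 57624256 to 57754737), was steady at 329 to 625 (median 348) CPM against 20.3, 28.0 and 29.1 CPM, 15.9-fold higher (adjusted p = 3.82e-06). The main fibril collagen Col1a1 stood at 55845, 20448 and 50171 CPM without a wound and 7141 to 57939 (median 20878) CPM in wounds, overlapping ranges (change -1.003 on the log2 scale, adjusted p = 0.078, but 0.0320 in DESeq2 and 0.0142 without replicate 1 at 16 h), and Col3a1 at 49126, 20022 and 39546 CPM and 13080.4 to 116339 (median 51999) CPM (adjusted p = 0.398). Enzymes that process and crosslink collagen rose without exception among those called, 10 of 17 (8 with the covariate), but 13 of the 17 differed among the times. Plod3, a lysyl hydroxylase, was 1 of their 2 steady members, rising 3.90-fold from 84.7, 50.8 and 71.1 CPM to 188 to 364 (median 255) CPM.

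Of 20 elastic fibre genes and small leucine-rich proteoglycans 11 fell and 4 rose (median -0.70), and 12 differed among the times. With the keratinocyte covariate 4 of the 20 fell and 3 rose. Mfap4, a microfibril protein (chromosome 11, 61485431 to 61488705), went from 1384, 1307 and 1083 CPM to 124 to 859.8 (median 257) CPM, 4.05-fold lower (adjusted p = 0.000137), with means of 257 ± 106 CPM at 16 h, then 199.8 ± 68.7 at 1.5 d, then 585 ± 238 at 3 d (SD, n = 3). Lum, the proteoglycan lumican, was the only steady member of this list, 1.83-fold lower (adjusted p = 0.0149, but 0.291 with the covariate). Emilin1, an elastic fibre glycoprotein, went the other way and rose 6.40-fold.

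Matrix proteases and their inhibitors were rearranged in both directions. Of 21 genes 12 rose and 5 fell (median 1.42), 5 and 2 of them steady, and with the covariate 8 rose and 2 fell. Mmp19, a stromal metalloproteinase (chromosome 10, 128790910 to 128800827), was steady at 76.2 to 257 (median 173) CPM against 25.0, 19.6 and 19.4 CPM, 7.54-fold higher (adjusted p = 1.15e-05), although it shares 22.9% of its exon length with another gene. While the inhibitor Timp1 rose, Timp2 fell 2.94-fold and was steady (adjusted p = 0.000231), and Timp3 fell 4.00-fold and shifted (adjusted p = 3.92e-05).

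Of 18 integrin and focal adhesion genes 10 rose and 1 fell (median 0.73), and 7 of the rises were steady. With the keratinocyte covariate 4 rises remained. Itga5, the fibronectin receptor subunit (chromosome 15, 103344286 to 103366791), stood at 137, 73.2 and 66.9 CPM without a wound and 536 to 1334 (median 912) CPM in wounds, 10.1-fold higher (adjusted p = 1.47e-05). Its partner Itgb1 rose 2.20-fold from 478, 369 and 422 CPM to 626 to 1318 (median 959) CPM (adjusted p = 0.000761). Both subunits of this receptor were steady, which by the rule puts every wound library above the unwounded range.

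Contractile genes were less uniform, with 8 of 20 higher and 1 lower (median 0.53), and 4 and none with the covariate. Actn1, which crosslinks actin (chromosome 12, 80167542 to 80260381), was steady at 25.1 to 47.2 (median 33.5) CPM against 2.06, 5.69 and 3.48 CPM, 9.12-fold higher (adjusted p = 1.62e-05). Cald1, the actin-binding protein caldesmon, was also steady, with wound group means of 657 ± 62.3 CPM at 16 h, then 654 ± 109.6 at 1.5 d, then 633 ± 87.4 at 3 d against 186 ± 18.4 without a wound (SD, n = 3). The myofibroblast marker Acta2 rose on average (4.69-fold, adjusted p = 0.00107) but was not common to the wounds: its mean was 5.26 ± 1.77 CPM at 16 h, near the 8.53 ± 2.88 of unwounded skin, and 265 ± 85.6 CPM at 3 d (SD, n = 3).

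Growth factor genes were selective, 10 of 25 rising and 5 falling (median 0.44), and 4 rising and 1 falling with the covariate. Vegfa, which drives vessel growth (chromosome 17, 46016993 to 46032377), was steady at 157 to 353 (median 236) CPM against 54.7, 41.7 and 46.9 CPM, 4.92-fold higher (adjusted p = 2.08e-05). Fgf7, a factor that dermal cells make for keratinocytes, rose 3.68-fold from 48.6, 19.8 and 23.3 CPM to 67.2 to 172 (median 108) CPM (adjusted p = 0.000285). Inhba, the subunit of activin A, rose 19.0-fold to a median of 249 CPM (log2 change 4.25, 3.44 with the covariate), and Hgf, the hepatocyte growth factor, 4.47-fold to 7.17 CPM (not called with the covariate, adjusted p = 0.14). Pdgfa, Hbegf, Tgfb3, Ptn and Gdf15 were the falls, of which Gdf15 alone was called with the covariate.

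Genes of glycolysis formed one of the larger steady groups. Of 20 measured, 14 rose and 2 fell (median 1.49), 10 of the rises were steady, and 11 rises and no fall remained with the keratinocyte covariate. Pkm, pyruvate kinase (chromosome 9, 59656368 to 59679375), stood at 411, 515 and 521 CPM without a wound and 1668 to 2639 (median 2346) CPM in wounds, 4.61-fold higher (adjusted p = 9.93e-06). Ldha, lactate dehydrogenase A, rose 4.38-fold from 421, 607 and 441 CPM to 1572 to 3446 (median 2005) CPM (adjusted p = 8.15e-05), while its sister subunit Ldhb fell 4.79-fold (adjusted p = 0.00211, but 0.219 with the covariate). Slc16a3, which exports lactate, rose too but shifted, from 45.2 ± 7.54 CPM at 16 h to 319.7 ± 51.4 CPM at 3 d (SD, n = 3) against 11.2 ± 3.12 without a wound.

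Other metabolic lists moved less. Hypoxia-responsive genes had 7 of 16 up and 2 down (median 0.40; 4 and none with the covariate), with Ero1l, an oxidase of the endoplasmic reticulum, and Ddit4, an inhibitor of mTOR signalling, 3.78- and 4.66-fold higher and steady. Oxidative phosphorylation had 4 of 24 up and 1 down, none with the covariate, a share of rises near that of all genes. Among 18 fatty acid oxidation genes 3 rose and 4 fell, including Ppara, a regulator of the pathway, from 6.71, 6.65 and 11.5 CPM to 0.201 to 2.11 (median 0.801) CPM (adjusted p = 0.00224, but 0.209 with the covariate, which left 1 rise and no fall in the list). Cholesterol synthesis had 6 of 19 down and none up on the average, none steady, and none called with the covariate. In the NRF2 antioxidant list 6 of 15 rose and 1 fell (3 and none with the covariate), with Gsr, glutathione reductase, 2.72-fold higher and steady.

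Genes of protein synthesis had the largest share of rising members among the 32 lists, though not with the keratinocyte covariate. Of 23 translation factors and tRNA synthetases 19 rose and none fell (median 0.95), 14 of them steady, and 9 remained with the covariate, against 14 of 28 in the chemokine list and 11 of 20 in that of glycolysis. Gars, which charges tRNA with glycine (chromosome 6, 55038001 to 55079504), stood at 143, 110.1 and 139 CPM without a wound and 316 to 464 (median 336) CPM in wounds, 2.70-fold higher (adjusted p = 6.7e-05). Vars, the valine enzyme, rose 4.00-fold from 77.2, 46.5 and 74.7 CPM to 179.7 to 349 (median 254) CPM (adjusted p = 0.000132). All 13 listed tRNA synthetases rose, and all but Wars and Yars were steady. Cytosolic ribosomal protein genes were not called in either direction (0 of 20 in edgeR, 0 at an unadjusted p under 0.05, 0 in DESeq2 and 0 in limma-voom, median -0.03).

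Genes of ribosome assembly rose as well but were not steady. Of 20 nucleolar ribosome biogenesis genes 16 rose and none fell (median 1.12), and 14 differed among the wound times. With the covariate 8 rose. The median change was 1.69 at 16 h, then 1.11 at 1.5 d, then 0.47 at 3 d. Mybbp1a, a nucleolar regulator (chromosome 11, 72441327 to 72451770), had 81.1 ± 10.4 CPM without a wound, 415 ± 87.1 at 16 h, then 209.6 ± 20.7 at 1.5 d, then 160.0 ± 17.6 at 3 d (SD, n = 3). The level at 3 d was still above every unwounded library, so the gene counts as common but shifting.

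Supply and folding genes rose alongside. Of 20 amino acid supply and one-carbon genes 10 rose and 2 fell (median 0.66), and 3 rises remained with the covariate. Mthfd1l, of the mitochondrial folate pathway (chromosome 10, 3973075 to 4167081), went from 5.23, 2.53 and 1.76 CPM to 33.8 to 62.0 (median 43.5) CPM, 14.4-fold higher and steady (adjusted p = 1.56e-05), and Slc7a5, a transporter of large amino acids, rose 3.58-fold (adjusted p = 0.000105). In the list of endoplasmic reticulum folding and stress genes 14 of 18 rose and 2 fell (median 0.99), with 10 steady rises, and 6 rises remained with the covariate. Hsp90b1, the main chaperone of the HSP90 family there, rose 2.77-fold from 727, 457 and 718 CPM to 1435 to 2249 (median 1667) CPM (adjusted p = 0.000169). The falls were Ddit3 and Herpud1, both induced by unfolded proteins, 1.80- and 1.65-fold lower (adjusted p = 0.0467 and 0.00183), and neither was called with the covariate (adjusted p = 0.53 and 0.111).

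Cell cycle genes divided by phase. The list for G1/S and DNA replication held 20 genes, of which 13 rose and 2 fell (median 1.37), and 8 of the rises were steady. With the covariate 9 rises remained. Among the wound times 0 of the 20 were called by edgeR and 0 by limma-voom, but 5 by DESeq2, and 5 had an unadjusted p under 0.05 in edgeR. Mcm5, a subunit of the replicative helicase (chromosome 8, 75109509 to 75128439), stood at 18.5, 14.01 and 19.3 CPM without a wound and 50.9 to 132 (median 78.9) CPM in wounds, 4.74-fold higher (adjusted p = 4.2e-05), and all 6 helicase subunits listed, Mcm2 to Mcm7, were steady rises. The falls were the D-type cyclins Ccnd1 and Ccnd2, 2.32- and 1.61-fold lower and steady (adjusted p = 0.00315 and 0.00683), but not called with the covariate (adjusted p = 0.132 and 0.09). Ccnd1 shares 21.5% of its exon length with another gene. Among 20 G2/M genes only 3 rose (1 with the covariate), a share near that of all genes, but 16 differed among the times, with medians of -1.24 at 16 h, then 0.74 at 1.5 d, then 0.90 at 3 d. Bub1 and Kif20a, 2 of the 3 rises, lost their call in 4 and 6 of 24 alternative settings. Among these were the omission of the 1.5 d libraries (adjusted p = 0.0854 and 0.142) and the keratinocyte covariate (adjusted p = 0.0916 and 0.119). The third rise, Plk1, a mitotic kinase, had 5.39 ± 2.24 CPM at 16 h and 36.6 ± 10.6 CPM at 3 d against 5.18 ± 3.30 without a wound (SD, n = 3).

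Immediate early genes fell almost as a whole. These genes answer growth factors and stress within minutes and are also raised when tissue is digested into single cells, which was done to all 12 samples. Of 23 measured, 21 fell and 2 rose (median -1.09), and 18 of the falls and both rises were steady. The test among the wound times called 0 of the 23 in edgeR and 0 in limma-voom and 1 in DESeq2, and 2 had an unadjusted p under 0.05 in edgeR. Atf3, a stress transcription factor (chromosome 1, 191170297 to 191183333), stood at 1654, 2339 and 2229 CPM in the unwounded libraries and at 143 to 688 (median 486) CPM in wounds, 4.82-fold lower (adjusted p = 0.000173), with a log2 change of -2.27, or -1.25 with the covariate. Fos, a subunit of AP-1, went from 3181, 3523 and 4035 CPM to 796 to 2034 (median 1167) CPM, 2.83-fold lower (adjusted p = 0.000346). Btg2, an antiproliferative gene, fell 2.41-fold from 834, 949 and 882 CPM to 288 to 449.6 (median 386) CPM (adjusted p = 7.51e-05). For each of these 3 genes the wound and unwounded libraries did not overlap, as for every gene common to the wounds.

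The exceptions were Ier3, which protects cells from death, at 355, 370.0 and 221 CPM and then 500.4 to 1191 (median 704) CPM (2.44-fold higher, adjusted p = 0.0018, but 0.0934 with the covariate), and Nr4a2, an orphan nuclear receptor, at 45.2, 26.8 and 35.4 CPM and 49.2 to 85.4 (median 76.5) CPM (1.98-fold higher, adjusted p = 0.00297). Its relative Nr4a1 fell 2.63-fold (adjusted p = 0.000158). Hspa1a fell 4.20-fold, but this gene is nearly identical to Hspa1b and fragments matching both were not counted. With the keratinocyte score as a covariate 7 of the 21 falls and 1 of the 2 rises were called, among them Btg2, Ier2 and Atf3 (adjusted p = 0.0128, 0.0277 and 0.0226), whereas Fos was not (adjusted p = 0.0529). Time in digestion was not tested, and no label gives it.

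**Figure D4:**
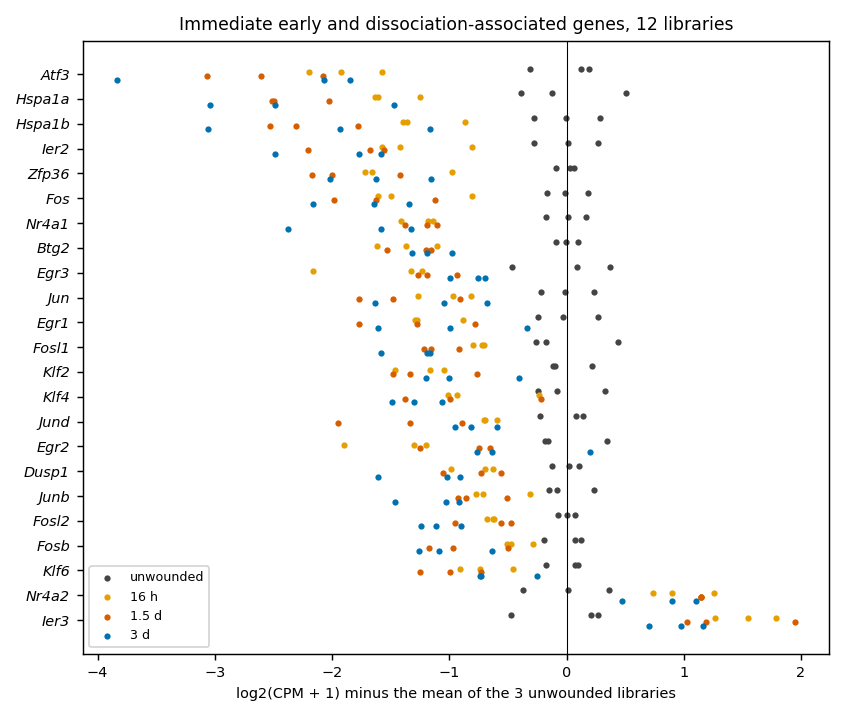
Level of the 23 immediate early and dissociation-associated genes in each of the 12 libraries, as log2(CPM + 1) minus the mean of the 3 unwounded libraries, with 1 point per library coloured by group. In 21 rows the wound points lie mostly to the left of the unwounded ones, and in the rows of Nr4a2 and Ier3 they lie to the right.

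Many immediate early genes are driven through a serum response element, whose core is the CArG box. Promoters of RefSeq (GRCm38.p6, 250 bases before the start site, both strands searched) were matched to 11725 tested genes. The CArG box was found in 1.399% of these, in 0.9153% of steady rises and in 2.554% of steady falls. Of the 19 immediate early genes with a promoter 2 had it (10.53%), Egr2 and Zfp36. Zfp36, which destabilises cytokine mRNAs (chromosome 7, 28376784 to 28379228), fell from 1855, 2057 and 2006 CPM to 437 to 1000.4 (median 625) CPM, 3.03-fold (adjusted p = 0.000162). The window around its match, chr7:28379257-28379306 on the minus strand, is shown 5′ to 3′ with the box in capitals. The box itself ends 49 bases before the start site.
Zfp36 upstream window: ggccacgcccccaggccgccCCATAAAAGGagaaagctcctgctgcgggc
The hypoxia element ACGTG stood in 24.34% of all promoters, 29.06% of those of steady rises and 24.19% of those of steady falls, and the AP-1 motif TGANTCA in 6.286%, 5.835% and 8.333%. Among the 19 immediate early promoters the motif matched most often was that of NF-kB, GGGRNNYYCC, in 7 (36.84%, against 10.77% of all promoters). The AP-1 motif was matched in 0 of the 19. A match is only a description of the letters in this window.

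Developmental signalling genes fell more often than they rose. Of 23 BMP and TGF-beta genes 5 rose and 7 fell (median -0.19), 2 and 5 of them steady, and 2 rises and 6 falls were called with the keratinocyte covariate. Besides Bmp4, Bmp3 fell 6.80-fold from 32.01, 36.5 and 57.0 CPM to 3.22 to 9.51 (median 5.64) CPM (adjusted p = 2.45e-05), and Bmp7 fell 4.00-fold (adjusted p = 0.000285; log2 change -1.28 with the covariate). The direct BMP target genes Id1, Id2 and Id3 fell as well, with changes of -3.23, -1.31 and -2.42 on the log2 scale (adjusted p = 0.000267, 0.000534 and 6.45e-05), and Id1 was not called with the covariate (adjusted p = 0.105). Ltbp2, a latent TGF-beta binding protein of microfibrils, went the other way, from 31.1, 20.7 and 23.6 CPM to 114 to 318 (median 179) CPM, 8.12-fold higher (adjusted p = 5.93e-05). The 7 falls of this list were thus ligands and targets of the BMP branch, steady except for Bmp2 and Id1, whose group means spanned more than 2-fold.

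In the Wnt pathway 10 of 20 genes fell and 2 rose (median -1.05), 3 of the falls being steady. The median change was -1.60 at 16 h, then -0.84 at 1.5 d, then -0.16 at 3 d, and 2 falls and 1 rise remained with the keratinocyte covariate. Rspo1, a secreted amplifier of Wnt signalling (chromosome 4, 124986430 to 125009099), went from 77.1, 46.7 and 44.9 CPM to 2.52 to 13.4 (median 4.91) CPM, 9.70-fold lower (adjusted p = 3.49e-05). Axin2, a feedback target of the pathway, fell 5.42-fold (adjusted p = 0.0178, but 0.426 with the covariate), and the receptor genes Fzd1 and Fzd4 rose 2.16- and 2.42-fold, with adjusted p of 0.0353 and 0.175 under the covariate. Sfrp2, a secreted Wnt modulator, averaged to -0.03 on the log2 scale (adjusted p = 0.957) although its means were 35.6 ± 13.7 CPM at 16 h and 1374 ± 605 at 3 d (SD, n = 3) around an unwounded 281 ± 71.8.

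Markers of fibroblast subsets of intact skin fell in part. Of 15 adventitial and fascia markers 9 fell and 1 rose (median -1.20), and 7 falls remained with the covariate. Pi16, a marker of adventitial progenitors (chromosome 17, 29318882 to 29328902), was steady, at 2106, 2113 and 1916 CPM and then 418 to 1479.9 (median 748) CPM, 2.67-fold lower (adjusted p = 0.000657). Igfbp6, a binding protein of insulin-like growth factors, fell 4.14-fold from 864, 1109 and 617 CPM to 127 to 338 (median 191) CPM (adjusted p = 0.00019). Efhd1, a calcium-binding mitochondrial protein, fell 19.0-fold. Ly6a itself, the gate, belongs to this list and was not called on average.

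Papillary and follicular dermal markers had 4 of 14 down and 2 up (median -0.77), but 2 down and 3 up with the keratinocyte covariate. Apcdd1, a Wnt inhibitor, was 5.77-fold lower and steady (log2 change -2.53, -1.78 with the covariate). The 2 rises were Alpl, 13.2-fold higher and shifting (adjusted p = 7.29e-05), and Crabp1, with a log2 change of 2.88 (adjusted p = 0.00108). Preadipocyte genes had 6 of 17 down and 2 up (median -0.48), and 2 down and 2 up with the covariate. Apoe, a lipid carrier, went from 2236, 4820.4 and 2816 CPM to 107 to 796 (median 486) CPM, 6.78-fold lower (adjusted p = 0.000235; log2 change -2.76, -1.36 with the covariate). Bmper, of the same list, went the other way, 6.32-fold higher and shifting (adjusted p = 1.11e-05). Clock genes were mostly not called (1 up and 3 down of 16, 1 and 1 with the covariate), but Per2 rose 12.6-fold and Per1 fell 2.79-fold, both steady (adjusted p = 0.000322 and 0.00218, with 0.00882 and 0.147 under the covariate). The labels give no hour of collection, and its part in the clock genes was not tested.

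Genes of the common response that shifted show what the average combines. Among rises, Adam12, a membrane protease of activated mesenchyme (chromosome 7, 133883199 to 134225097), had 4.23, 3.88 and 3.22 CPM without a wound, then means of 132 ± 30.5 CPM at 16 h, then 268 ± 81.5 at 1.5 d, then 347 ± 132 at 3 d (SD, n = 3; adjusted p among times = 0.0416). Plod2, a lysyl hydroxylase of collagen crosslinks, and Spp1, the secreted phosphoprotein osteopontin, were also highest at 3 d, at 238 ± 91.2 and 277 ± 137 CPM against 43.6 ± 4.95 and 27.6 ± 5.47 at 16 h (adjusted p among times = 0.0283 and 0.0204). The opposite order was seen for Fgf23, a hormone of phosphate balance, at 53.3 ± 19.1 CPM at 16 h and 7.63 ± 3.95 at 3 d (adjusted p among times = 0.00737), and for Prg4, the lubricating proteoglycan, at 1564 ± 281 and 456 ± 253 CPM (adjusted p among times = 0.0382). Of the 125 shifting rises 68 had the larger change at 16 h than at 3 d and 57 the reverse.

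Among shifting falls, Smpd3, a neutral sphingomyelinase (chromosome 8, 106252548 to 106337965), went from 221, 108 and 215 CPM to 1.20 to 16.9 (median 8.63) CPM, lowest at 16 h with 3.25 ± 2.12 CPM (SD, n = 3; average change -4.67, SE 0.32, adjusted p = 3.82e-06). Cyp27a1, which oxidises sterols, and Tdo2, which degrades tryptophan, were also lowest at 16 h, at 1.39 ± 0.522 and 1.10 ± 0.531 CPM against 41.1 ± 6.21 and 28.2 ± 3.79 without a wound. Eppk1, the cytolinker epiplakin of epithelia, and Ccdc88c, a Dishevelled-binding protein, were lower at 1.5 d than at 16 h, going to 8.31 ± 1.73 and 0.695 ± 0.485 CPM at 1.5 d from 28.8 ± 6.61 and 8.51 ± 3.77 at 16 h. Every wound library of these 5 genes lay below every unwounded one, as the rule for common genes requires. With the keratinocyte covariate the log2 changes of Cyp27a1, Eppk1 and Ccdc88c went from -3.54, -3.78 and -3.46 to -2.61, -2.62 and -2.07.

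**Figure D5:**
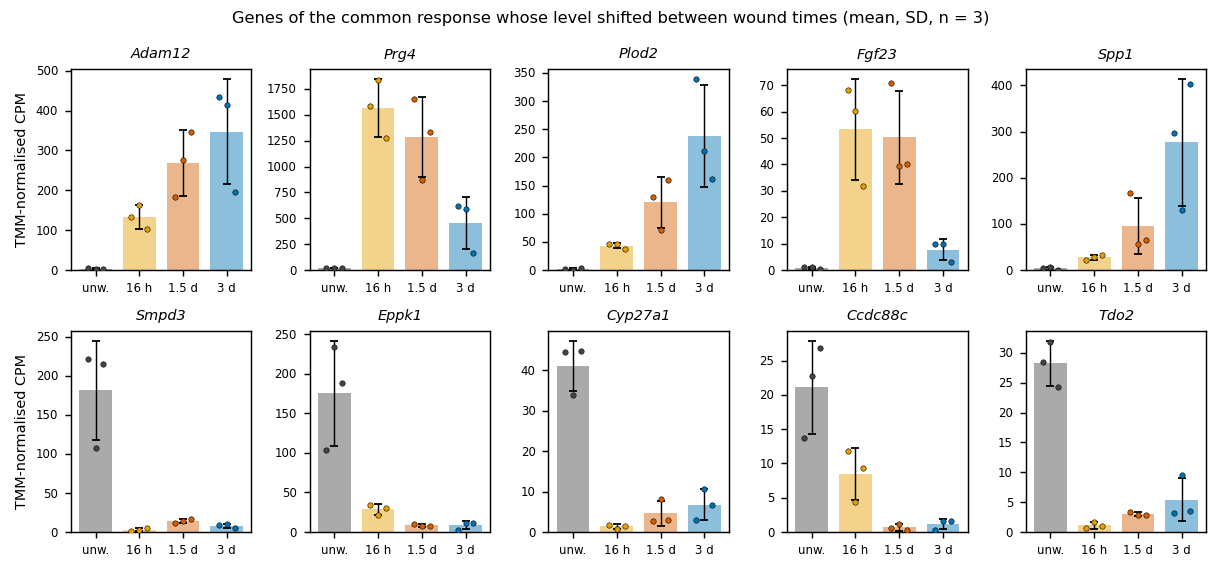
Level of the 5 rises and 5 falls with the largest average change among shifting genes, in TMM-normalised CPM per group (bars start at 0 and give the mean, error bars the SD, points the 3 libraries). Adam12, Plod2 and Spp1 are highest at 3 d and Prg4 and Fgf23 at 16 h or 1.5 d, while the bars of all 5 falls stay below the unwounded bar.

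Not every change over time entered the common response. Of the 948 genes that differed among the wound times 483 were called on average and 465 were not, and of the latter 427 changed in opposite directions at 16 h and 3 d. Such genes cancel in the average, so that its counts leave them out.

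Markers of other cells were also followed, as the gate removes cells by CD45 and CD31 protein only. The 12 neutrophil markers summed to between 0.547 and 1.51 CPM in the unwounded libraries and between 5.99 and 31.97 CPM in wounds, with 6 of them (Cxcr2, Csf3r, Ly6g, Ngp, Retnlg and Trem1) at 0 in all unwounded libraries, and 5 of 8 tested rose. The 18 macrophage and monocyte markers summed to 56.9 to 112 CPM and 58.8 to 132 CPM, with Fcgr1, Mrc1, C1qc and Ms4a7 at 0 without a wound, and 7 of 17 tested rose and 1 fell. Their part in the rises of Clec4e, Lilr4b, Havcr2 and the cytokine list was not tested. Adipocyte markers summed to 96.3 to 164 CPM without a wound and 14.5 to 53.4 CPM in wounds, and 6 of 8 tested fell. Endothelial markers summed to 97.8 to 132 CPM and 29.6 to 62.2 CPM (4 of 12 tested fell), and pericyte markers to 305 to 359 CPM and 32.5 to 215 CPM (3 of 10 tested fell). Schwann cell and melanocyte markers summed to 92.8 to 103 CPM and 19.3 to 43.1 CPM (3 of 7 tested fell). Ranges did not overlap for the neutrophil, adipocyte, endothelial, pericyte and Schwann cell lists either. Their sums and wounding therefore cannot be told apart, and no covariate was fitted for them. Of the 20 keratinocyte markers 13 fell and 1 rose, Krt6a, from 4.43, 17.6 and 39.0 CPM to 35.7 to 738 (median 330.1) CPM, while Krt14 stood at 5072, 9352 and 6771 CPM and 411 to 6707 (median 3635) CPM and did not pass (adjusted p = 0.156).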

How the data were processed

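RNA of sorted cells from 12 mice was copied with SMART-Seq v4, made into Nextera XT libraries, which keep no strand, and sequenced on a NextSeq, per the labels' protocols. Values are counts of fragments per gene that the authors deposited as one table, made with featureCounts 2.0.0 on exons of a RefSeq gene set for mm10, per the file headers. The submitters' processing notes also name STAR, SAMtools, Subread and Partek. The header shows no option to count fragments with several alignments or with several genes, so levels of near-identical and overlapping genes are too low and uncertain.

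From the counts, 14901 of 25239 genes passed filterByExpr and were fitted in edgeR 4.0.16 (R 4.3.3; TMM factors, quasi-likelihood test) over all 12 libraries in 4 groups. The average wound change is the mean of 3 wound coefficients minus the unwounded one, and an F test compared the wound times. P-values were adjusted over all tested genes by the Benjamini-Hochberg method, with 0.05 as the threshold, and the code was tested on simulated data. Log2 CPM values use a prior count of 2, standard errors were derived from the change and its F value, and fold changes are those of the fit. Depth was 26389453 to 43493475 counts per library, so the spread between mice, not counting, limits most tested genes.

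Genes were named by a rule: the 12 largest steady and 5 largest shifting changes in each direction with at least 20 CPM on the higher side and a symbol of a known gene, the list members with the smallest p (3 or fewer a list), up to 8 genes absent from one side, and a fixed panel of gate and fibroblast genes. The members and lists were chosen with earlier results of these data known, and further list members after their values were seen. Coordinates are those of the annotation in the files (mm10). Alternatives were other size factors, total-count scaling, DESeq2 1.42.0, limma-voom (limma 3.58.1), other filters, a replicate block, 9 wounds as 1 group, each time or library left out, a keratinocyte covariate and other limits for steady genes.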

Additional observations from a re-analysis of the deposited data

Results flagged for a closer look

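In 3 of the steady genes 1 of the 9 wound libraries stood apart from the others, with a gap to its nearest neighbour that took a larger part of the group's range than Dixon's critical value at the 95% level. For Timp1 replicate 1 at 1.5 d stood high at 3506 CPM (gap ratio 0.615). For Gjb2 and Hopx replicate 1 at 3 d stood low, at 4.76 and 1.51 CPM (gap ratios 0.505 and 0.529), the library in which keratinocyte markers took the smallest share of counts (0.0887%). The ratio was computed on log2 CPM for each named steady gene, and most of the 136 named genes were steady. Chance flags about 1 in 20 groups, so 3 flags are no more than chance by itself would give.

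Other named genes had wound changes that differed between the times by edgeR's F test. Differences are given as log2 change at 3 d minus that at 16 h. Genes of matrix and its processing were higher at 3 d: Adam12 (1.39, adjusted p = 0.0416), Plod2 (2.45, adjusted p = 0.0283), Spp1 (3.33, adjusted p = 0.0204), Col12a1 (2.84, adjusted p = 0.000255), Col5a3 (1.74, adjusted p = 0.0157), Fbn2 (3.06, adjusted p = 0.000523), Emilin1 (1.35, adjusted p = 0.0288) and Loxl3 (1.26, adjusted p = 0.00677). Genes with falls that were less deep at 3 d, or rises that were larger, included Mfap4 (1.19, adjusted p = 0.0297), Igfbp5 (1.53, adjusted p = 0.000883), Wnt5a (0.93, adjusted p = 0.0423), Smpd3 (1.29, adjusted p = 0.0332), Cyp27a1 (2.28, adjusted p = 0.0478), Tdo2 (2.30, adjusted p = 0.0287) and Bmper (0.66, adjusted p = 0.0467). Genes of lactate export, glycolysis and mitosis that stood higher at 3 d were Slc16a3 (2.82, adjusted p = 0.00171), Eno1 (1.05, adjusted p = 0.0251), Plk1 (2.76, adjusted p = 0.00704), Bub1 (2.85, adjusted p = 0.0143) and Kif20a (2.50, adjusted p = 0.0159).

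Changes in the other direction, lower at 3 d than at 16 h, were found for Fgf23 (-2.80, adjusted p = 0.00737), Prg4 (-1.78, adjusted p = 0.0382), Alpl (-4.22, adjusted p = 0.000883), Sod2 (-1.92, adjusted p = 0.00901) and Aldh1a2 (-3.29, adjusted p = 0.0138). Nucleolar, cholesterol synthesis and 2 other genes also stood lower at 3 d: Mybbp1a (-1.37, adjusted p = 0.00288), Pes1 (-0.95, adjusted p = 0.0253), Nop2 (-1.22, adjusted p = 0.00852), Hmgcs1 (-1.05, adjusted p = 0.0194), Fdft1 (-1.22, adjusted p = 0.0425), Msmo1 (-1.57, adjusted p = 0.0174), Eppk1 (-1.74, adjusted p = 0.0305) and Ccdc88c (-2.84, adjusted p = 0.00587). Aldh1a2, absent from the unwounded libraries, ran from 1.05 to 25.6 CPM in wounds with a median of 12.6.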

How the results depend on the processing

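Counts of average rises (2330) and falls (2364) stayed within 1.5 times under other size factors, total-count scaling, DESeq2, limma-voom, both filters, the replicate block and the omission of any library or wound time, and no called gene was called in the other direction in any of these settings. With the keratinocyte score as a covariate 760 rose and 388 fell, 446 and 207 were steady and 83 and 45 shifting. The marker share differed between the groups without overlap, so both cannot be told apart. Of 136 named genes 16 lost their call with it.

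Counts that rest on the test among the wound times were less stable than the average. Of 948 genes called among the times, DESeq2 gave 2003, with 238 rises and 199 falls shifting. Leaving out all 16 h libraries gave 17, with 7 and 1 shifting and 1653 and 1558 steady. Leaving out 3 d gave 403 and 43 shifting rises, and leaving out 1.5 d gave 118 shifting falls. A wound range under 1.5-fold left 552 steady falls. Asking for a call at each time in place of no overlap left 485 steady falls and 80 and 40 shifting genes.

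With 1 library left out, average rises ranged from 1789 to 2395, falls from 1702 to 2458, steady rises from 1049 to 1300, steady falls from 831 to 1005, shifting rises from 41 to 155, shifting falls from 29 to 72, genes called among the times from 373 to 968, and the keratinocyte difference from -2.81 to -1.80 percentage points (-0.575 without keratins). Without 16 h replicate 1, 2 or 3 the times called 469, 373 and 545 genes, with 57, 41 and 74 shifting rises and 35, 29 and 38 shifting falls. Without 3 d replicate 1 or 2 they called 624 and 591, with 82 and 77 shifting rises. The cause was not tested.

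Replicate numbers recur across the groups, but mice differ and same-numbered libraries did not deviate together (18 correlations from -0.172 to 0.168, and 2 of 12 libraries closest to their own number), so the numbers do not pair the samples. With a replicate block 2017 genes rose and 2069 fell, 1070 and 876 were steady, 75 and 40 shifting, and 602 differed among the times. With the 9 wounds as 1 group 1967 rose and 1784 fell, and this setting gives no classes by time.

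Separate mice, 3 per group, measure the spread between animals at 3 ages of wound only. The unwounded group rests on 3 mice, sort and digestion were shared, and sorted bulk RNA does not separate cell states. Genes near 0 CPM are limited by depth, where a group without counts allows up to 3 counts.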
